A study of Mus musculus with 9 samples.

Results

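The regions described here are places in the mouse genome that TWIST1 chromatin immunoprecipitation enriched far from any protein-coding gene. They were chosen from the deposited peak lists. Overlapping peaks of the 4 Twist1-OE libraries (1 bp or more in common) were joined into regions, and a region was kept when all 4 libraries had a peak in it and no Twist1-KO ChIP or Twist1-KO input peak overlapped it. Its position is the mean, over libraries, of the summit of the library's most significant peak. A region lay in a gene desert when that position was more than 100 kb from every protein-coding gene body of RefSeq, on chromosomes 1 to 19. There were 937 such regions among 10168 reproducible regions, or 9.22% of them. The peak calls and their summits therefore chose the members, so their presence in the OE libraries and their absence from the KO libraries are properties of the choice and not results.

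The study used A2loxcre mouse embryonic stem cells of the C57BL/6 strain, grown as embryoid bodies and differentiated towards neuroepithelium for 3 days. The Twist1-OE cells (4 ChIP libraries) lacked endogenous Twist1 and carried a doxycycline-inducible Flag-Twist1 cassette. The Twist1-KO cells (2 ChIP libraries, numbered 2 and 3, and 1 input library) were Twist1-/- cells without the cassette, so both genotypes lacked the endogenous gene. Both received doxycycline for 16 h before collection, and an antibody against TWIST1 was used for each ChIP library. TWIST1 in the OE cells is therefore an induced, tagged protein, and the replicate libraries came from separate experiments on what the design text describes as 1 inducible line. The 2 Twist1-OE input libraries were not analysed here.

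TWIST1 is a basic helix-loop-helix transcription factor known for its part in neural crest, craniofacial mesenchyme and the transition from epithelium to mesenchyme. It binds DNA as a dimer with other proteins of the family, such as the E proteins, at the short E-box word CANNTG, in which N is any base. Gene deserts are long stretches without protein-coding genes; those next to developmental regulators often hold enhancers that act on the gene over long distances. Genes named below border the gap that holds a region and are labels of position only; the gene named is not always the nearer of the pair.

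The Twist1-OE lists held 21811, 104488, 85676 and 13784 peaks on chromosomes 1 to 19 in libraries 1 to 4, against 81 and 52 in the Twist1-KO libraries 2 and 3 and 1602 in the KO input. Read totals are not listed, but the reads behind each peak could be recovered from its fold and p-value. The commonest background read pileup was 1.00, 5.38, 5.29 and 1.20 in OE libraries 1 to 4, and 4.73 and 5.09 in the KO libraries, so the OE libraries form a pair with low background (1 and 4) and a pair with high background (2 and 3). Library 4 had the fewest peaks and decided how many regions were kept: without it, regions of the other 3 OE libraries included 1727 in gene deserts.

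Sequence was at hand for the few members that sit at the start of a non-coding gene. The position of 9 members lay in a RefSeq promoter window, from 250 bases before to 50 after the start of a gene, and all 9 starts belong to long non-coding RNAs (lncRNAs). The 5 windows that hold the summits of all 4 OE libraries are printed first, followed by Tunar, which holds 2. Not printed are 1700030C10Rik, which holds 3 and has no E-box, Gm36543, which holds 2, and 5730522E02Rik, which holds 0. Each printed window has the word CAGATG on either strand, and none of those left out does. The printed windows are RefSeq sequence of GRCm38.p6, read 5′ to 3′ on the strand of the lncRNA, with each E-box (CANNTG) in capitals. Gm35407 is on the plus strand at chr3:67753350-67753649. Gm29676 is on the minus strand at chr13:44260074-44260373. Gm32050 is on the minus strand at chr8:26629346-26629645, Gm39767 on the minus strand at chr2:21964118-21964417, 1700057H15Rik on the minus strand at chr4:124485910-124486209 and Tunar on the plus strand at chr12:105336743-105337042.
Gm35407: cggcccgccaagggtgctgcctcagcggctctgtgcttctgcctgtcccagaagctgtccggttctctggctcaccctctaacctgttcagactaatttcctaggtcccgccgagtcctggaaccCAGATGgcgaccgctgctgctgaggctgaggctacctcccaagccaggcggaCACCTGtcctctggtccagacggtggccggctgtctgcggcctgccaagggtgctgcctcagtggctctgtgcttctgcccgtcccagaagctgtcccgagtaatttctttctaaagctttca
Gm29676: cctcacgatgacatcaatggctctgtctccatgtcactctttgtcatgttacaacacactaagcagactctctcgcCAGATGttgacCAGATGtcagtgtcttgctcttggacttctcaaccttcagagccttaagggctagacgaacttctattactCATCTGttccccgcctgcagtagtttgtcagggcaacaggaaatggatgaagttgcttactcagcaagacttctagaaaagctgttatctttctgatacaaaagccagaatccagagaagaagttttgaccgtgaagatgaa
Gm32050: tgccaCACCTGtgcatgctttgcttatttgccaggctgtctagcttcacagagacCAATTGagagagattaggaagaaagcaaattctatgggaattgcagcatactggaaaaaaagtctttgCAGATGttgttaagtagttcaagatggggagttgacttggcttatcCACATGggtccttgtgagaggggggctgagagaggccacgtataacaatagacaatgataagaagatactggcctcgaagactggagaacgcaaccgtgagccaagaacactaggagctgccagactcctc
Gm39767: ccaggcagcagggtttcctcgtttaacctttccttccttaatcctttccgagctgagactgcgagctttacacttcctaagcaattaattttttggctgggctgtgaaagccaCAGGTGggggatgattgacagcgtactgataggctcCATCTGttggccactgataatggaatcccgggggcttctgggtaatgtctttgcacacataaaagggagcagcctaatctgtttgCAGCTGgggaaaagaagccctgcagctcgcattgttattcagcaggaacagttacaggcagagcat
1700057H15Rik: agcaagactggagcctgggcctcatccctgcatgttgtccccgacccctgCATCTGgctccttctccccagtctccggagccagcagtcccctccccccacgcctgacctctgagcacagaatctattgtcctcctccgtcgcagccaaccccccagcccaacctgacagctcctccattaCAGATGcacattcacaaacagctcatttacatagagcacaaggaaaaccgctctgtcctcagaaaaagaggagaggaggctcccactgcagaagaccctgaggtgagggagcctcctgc
Tunar: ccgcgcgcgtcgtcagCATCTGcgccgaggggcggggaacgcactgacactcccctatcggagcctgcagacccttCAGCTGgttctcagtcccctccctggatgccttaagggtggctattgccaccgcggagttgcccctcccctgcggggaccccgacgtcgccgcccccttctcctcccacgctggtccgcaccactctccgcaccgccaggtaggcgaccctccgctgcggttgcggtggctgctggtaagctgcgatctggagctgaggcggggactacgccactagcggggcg

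In the Gm29676 window the 4 summits fell at bases 82, 84, 90 and 103 (OE libraries 1 to 4), counted from the 5′ end, and all 3 of its E-boxes have the form CAGATG, the last of them on the opposite strand. Its mean position, base 90, was 0 bp from the nearest E-box, since it falls inside the second CAGATG. The region had folds of 10.5, 53.9, 29.6 and 9.08 in OE libraries 1 to 4. It lies 457.2 kb from Cd83, in the gap before Jarid2, which encodes a cofactor of the Polycomb complex PRC2. The mean position was 6 bp from the nearest E-box in the Gm32050 window, 10 bp in Gm35407, 36 bp in Gm39767, 52 bp in 1700057H15Rik and 110 bp in Tunar. Of the windows not printed, it was 46 bp in Gm36543 and 114 bp in 5730522E02Rik, and 1700030C10Rik held 0 E-boxes. The distance for random positions was not computed.

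Tunar, a lncRNA known for its part in pluripotency and neural differentiation, looked different. The summits of OE libraries 2 and 3 fell at bases 7 and 17 of its window, beside an E-box of the form CAGATG on the opposite strand, while those of libraries 1 and 4 fell at bases 374 and 360, past the window's end. The window is rich in G and C, at 69.7%, and holds 30 CpG sites, against 5 in the Gm29676 window. The pair of libraries 1 and 4 and the pair 2 and 3 thus placed the summit of this region in different places.

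An E-box was present in 8 of the 9 windows, against 72.2% of all 31365 RefSeq promoter windows of that length. The word CAGATG, on either strand, was in 6 of the 9 windows and in 17.2% of all windows. The palindrome CAGCTG was in 2 of the 9 windows and in 16.3% of all windows. CATATG was in 0 of the 9 and in 3.71% of all windows, and CACGTG in 0 of the 9 and in 7.14% of all. Each of these words is a kind of E-box, so the counts overlap with the first. These are counts of letters in windows chosen by the members' mean positions, with no test. The background windows were not limited to lncRNA genes and not matched for their content of G and C. The 5730522E02Rik window, counted here, held 0 of the 4 summits.

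The members were spread thinly over a large part of the genome. Gene deserts made up 27.3% of the length of chromosomes 1 to 19, or 656.9 of 2402.8 Mb. They held 1.43 reproducible regions per Mb, against 5.29 per Mb in the rest, a ratio of 3.71. With all 937 members, the share of 9.22% has a Wilson 95% interval of 8.67% to 9.79%, which covers counting error only. The members' distance from the nearest protein-coding gene ran from 100080 to 1906013 bp, with a median of 220606 bp. The quartiles were 145071 and 416473 bp, while 190 were over 500 kb and 64 over 1 Mb from any such gene.

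Inside protein-coding gene bodies there were 5839 regions, or 5.94 per Mb. Outside them the density fell with distance and then levelled off. It was 28.3 regions per Mb within 1 kb outside a gene, 4.25 at 1 to 10 kb, 3.23 at 10 to 50 kb and 2.58 at 50 to 100 kb. In the deserts themselves it was 2.14 per Mb at 100 to 200 kb (426 regions), 1.25 at 200 to 500 kb (321 regions), 0.928 at 500 kb to 1 Mb (126 regions) and 0.974 beyond 1 Mb (64 regions). The outer 100 kb of the deserts thus came nearest to the stretches outside them, and the interior had the lowest values. How much of each stretch could be mapped was not tested.

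**Figure D1:**
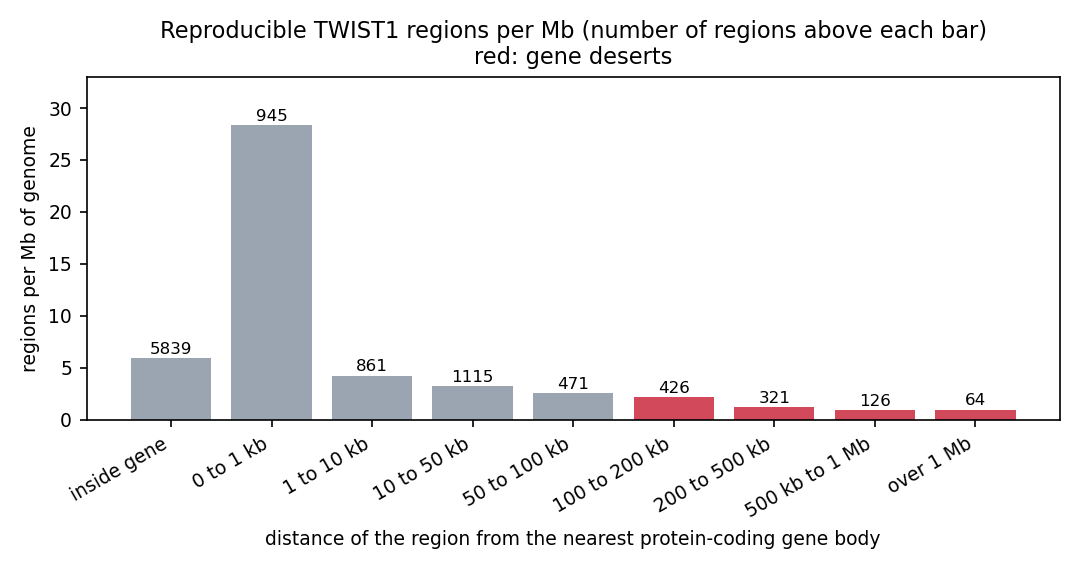
Reproducible TWIST1 regions per Mb of genome (y axis) by distance from the nearest protein-coding gene body (x axis), with the number of regions above each bar and gene deserts in red. The density is 5.94 per Mb inside a gene body, 28.3 within 1 kb outside a gene and 2.14, 1.25, 0.928 and 0.974 in the 4 desert bins.

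The limit of 100 kb cut through a continuous series. The 5 members just inside it lay 100.1 to 101.4 kb from a gene, at Cd24a, Top1, Stmnd1, Cadm1 and Stc1, and the 5 regions just outside it lay 99.4 to 99.9 kb away, near Castor2, Ptger4, Kctd15, Nxnl2 and Pnpt1. The region near Stmnd1 had folds of 44.4, 112, 100.1 and 23.2 in OE libraries 1 to 4, and that near Castor2, just outside, had 42.9, 20.2, 17.3 and 24.97. Weak and stronger regions stood on both sides.

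The members were on every one of the 19 chromosomes. Chromosome 3 had the most, 92, which was 17.8% of its reproducible regions, and chromosome 19 had the fewest, 9. Per Mb of desert, chromosome 10 had 1.92 members and chromosome 13 had 1.89, against 0.847 on chromosome 7 and 0.857 on chromosome 19. Chromosome 14 was also low, with 40 members in 40.2 Mb of desert, or 0.996 per Mb.

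Enrichment at the members was compared with that at the other 9231 reproducible regions within each OE library. The fold is the authors' value for the peak over its local background, and it is read within a library only. The members' median fold was 15.0 in library 1, 26.2 in library 2, 21.5 in library 3 and 9.53 in library 4, against 15.5, 15.2, 14.3 and 11.4 at the others. The members were thus higher in libraries 2 and 3 and lower in 1 and 4. On the log2 scale the differences were -0.047, 0.78, 0.58 and -0.25, with a mean of 0.27 ± 0.50 (SD, n = 4 libraries, two-sided exact sign-flip p = 0.5, where the smallest possible p is 0.125).

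The regions at gene ends stood farthest from the members. Regions within 1 kb of a gene's start or end had median folds of 17.97, 6.58, 6.83 and 13.2 in libraries 1 to 4. These were low in libraries 2 and 3 and high in 1 and 4, the reverse of the members. Against the 2447 regions outside genes, more than 1 kb from a gene's end and within 100 kb of it, with medians of 13.97, 28.5, 25.4 and 9.53, the members' mean log2 difference was -0.067 ± 0.15 (SD, n = 4, exact sign-flip p = 0.5; this comparison was added after the data were seen). Against the 3610 regions deep inside genes it was -0.015 ± 0.11 (n = 4, exact p = 0.625). Both mean differences were smaller than their SD. The smallest p that 4 libraries can give is 0.125, so these tests cannot decide whether the classes differ. The same peaks chose the regions, so the folds are a description.

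**Figure D2:**
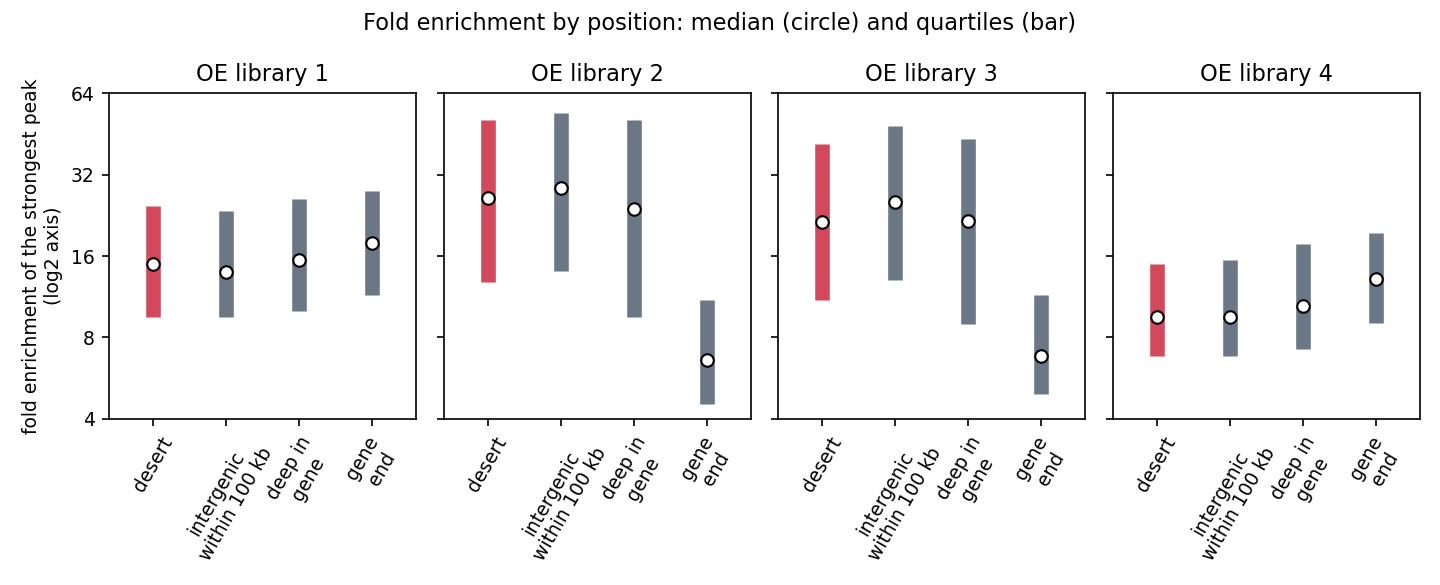
Fold enrichment of each region's strongest peak (y axis, log2) in each OE library, for desert regions (red) and 3 classes of other regions (grey); circles are medians and bars run from the first to the third quartile. Desert medians of 15.0, 26.2, 21.5 and 9.53 lie near those of the other intergenic regions, while regions at gene ends fall to 6.58 and 6.83 in libraries 2 and 3.

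By median, the members were narrower than other regions and their summits lay closer together, which is given with no test. The median merged width was 895 bp in the deserts, against 1115 bp in other intergenic regions and 1170 bp in all others. The summits of all 4 libraries fell within 100 bp of each other in 75.6% of members, against 69.8% of other intergenic regions, 61.4% of those deep inside genes and 23.3% of those at gene ends. The highest fold of a member was 476, 540, 521 and 273 in libraries 1 to 4. Among the 100 strongest reproducible regions, ranked by the mean of the 4 within-library percentiles of fold, 5 were members, and among the 500 strongest 52 were, or 10.4%, beside the members' 9.22% of all regions.

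Median folds were alike at 100 to 200 kb and 200 to 500 kb from a gene and lower beyond 500 kb. Medians in OE libraries 1 to 4 were 14.8, 26.9, 22.4 and 9.53 at 100 to 200 kb, 15.0, 27.7, 24.0 and 9.53 at 200 to 500 kb, and 14.5, 20.3, 16.6 and 9.08 beyond 500 kb. The regions beyond 500 kb had lower medians in each library, most plainly in libraries 2 and 3, and were also narrower, at 816 bp. These medians are a description, since the rule used the same peaks.

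Among the members, libraries of a pair ranked the folds alike. Spearman's rho over the 937 members was 0.954 between OE libraries 2 and 3 and 0.875 between 1 and 4, and 0.434 to 0.473 between libraries of different pairs. Over the other 9231 regions the rho between pairs was lower, 0.151 to 0.237, and that within pairs was 0.966 and 0.866. These points share their libraries, so no test applies. A median member stood at percentile 61.7 of all reproducible regions in libraries 2 and 3 together and at 41.8 in libraries 1 and 4, and 51 members (5.44%) were above percentile 90 in both pairs, beside 5.15% of the others.

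Peak calls of a library left out of the choice allow a test. Regions were rebuilt from 3 OE libraries, again without KO or input peaks, and looked up in the fourth. With library 1 left out, 93.6% of 1000 desert regions had a peak in it, against 92.7% of 9885 others; the share over all regions was 92.8%. With libraries 2, 3 and 4 left out, the shares were 99.7%, 98.6% and 54.1% for desert regions, against 97.3%, 97.8% and 60.4% for the others, beside 97.5%, 97.8% and 59.7% over all regions. The mean difference was -0.53 ± 3.86 percentage points (SD, n = 4, exact sign-flip p = 1), and library 4 set its sign: without it the mean of the other 3 was 1.36. Against the other intergenic regions the differences were 2.14, 0.25, -0.13 and 1.83 points for libraries 1 to 4 left out, with a mean of 1.02 ± 1.13 (SD, n = 4, exact sign-flip p = 0.25). A difference between desert and other regions was not detectable with 4 libraries, where the smallest possible p is 0.125.

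The place of the left-out library's summit was compared in the same way. A summit lay within 100 bp of the position in 83.3%, 89.8%, 89.4% and 47.7% of all desert regions of 3 libraries (libraries 1 to 4 left out), against 62.5%, 64.7%, 65.5% and 40.1% of the others. These shares count a region with no peak in the left-out library as not near. Among regions that had a peak there, the shares were 89.0%, 90.1%, 90.6% and 88.1% in the deserts, against 67.4%, 66.5%, 67.0% and 66.5% in the others (a comparison added after the data were seen). This difference averaged 22.6 ± 1.14 percentage points (SD, n = 4). Regions found again had peaks in all 4 OE libraries, so they were nearly the chosen regions themselves (936, 937, 936 and 935 in the deserts). The values therefore describe almost the same regions through each library in turn and are not a test. Against the other intergenic regions found again, at 83.7%, 85.0%, 84.5% and 82.2%, the difference was 5.59 ± 0.51 points, likewise a description. The desert regions were also narrower, and the part of width in this difference was not tested.

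All peaks, not only those of the chosen regions, were then compared between genotypes. Peaks in gene deserts made up 10.3%, 10.2%, 8.87% and 8.68% of the lists of OE libraries 1 to 4, against 28.4% (23 of 81, Wilson 95% interval 19.7% to 39.0%) and 42.3% (22 of 52, 29.9% to 55.8%) of those of KO libraries 2 and 3. The KO input had 7.74%. The mean was 9.52 ± 0.86% in the OE libraries (n = 4) and 35.4 ± 9.84% in the KO libraries (n = 2), and the groups did not overlap. The difference of -25.8 percentage points had a two-sided exact permutation p of 0.0667 over the 15 splits, the smallest this design allows. The lists differ greatly in length. With the 52 most significant peaks of each library, the desert share was 42.3%, 1.92%, 1.92% and 42.3% in OE libraries 1 to 4, against 28.8% and 42.3% in KO libraries 2 and 3. The groups then overlapped, with a difference of -13.5 points (exact p = 0.6).

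The KO desert peaks were few, mostly weak and in part shared with the input. Their median fold was 2.29 in library 2 and 1.89 in library 3, and the highest was 18.8 and 5.23. The peak with 18.8, chr17:4626169-4626585, overlapped no KO input peak but peaks of 2 OE libraries. Of the 23 in KO library 2 and the 22 in KO library 3, 14 and 13 overlapped a peak of the other KO library and 14 in each overlapped a KO input peak. A run of 7 and 9 of them stood at the very start of chromosome 9, between 3001135 and 3035241, and 3 and 4 lay in the immunoglobulin heavy-chain locus Igh on chromosome 12. With these stretches left out of the KO lists only, a step chosen after the KO peaks were seen, the KO shares were 18.3% and 23.1% (exact p = 0.0667). Peaks of at least 1 OE library overlapped 15 in each KO library. When non-coding genes also counted as genes, the OE minus KO difference was 0.13 percentage points (exact p = 0.533).

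**Figure D3:**
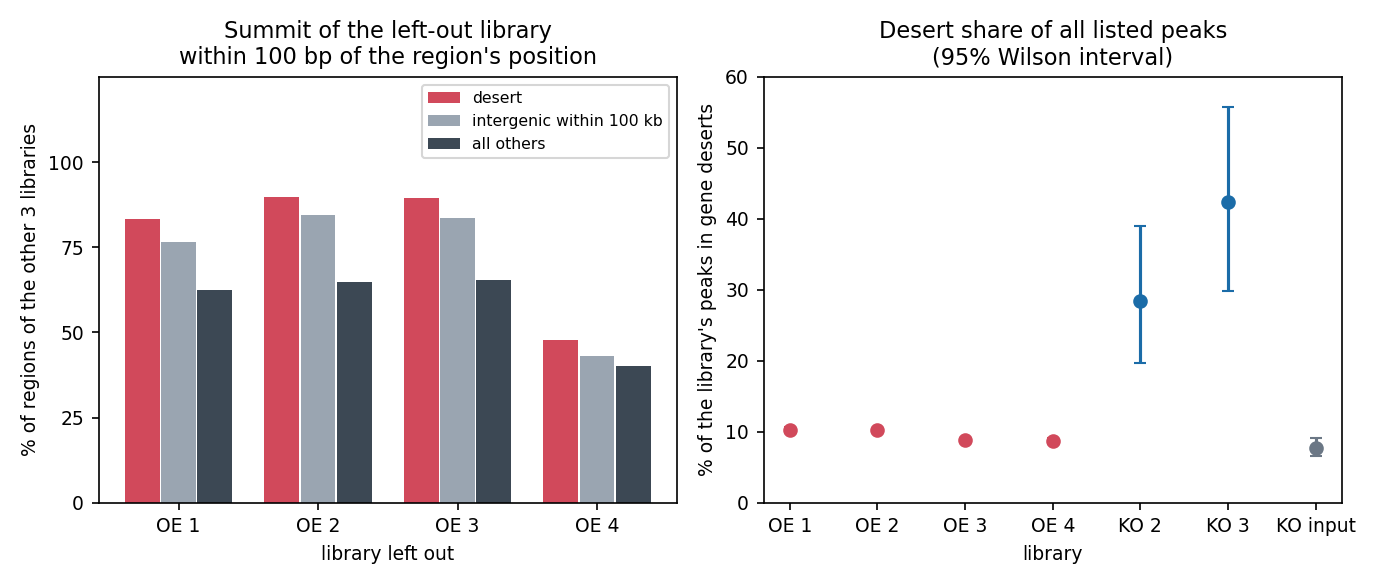
Left, the share of regions built from 3 OE libraries (y axis, %) in which the left-out library (x axis) had its summit within 100 bp, for desert regions, other intergenic regions and all others; right, the share of each library's peaks in gene deserts with 95% Wilson intervals. Desert bars are highest for each left-out library, and the KO shares of 28.4% and 42.3% stand above the OE shares of 8.68% to 10.3%.

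The filter on KO and input peaks removed few desert regions. Before it, 955 regions of all 4 OE libraries lay in deserts, of which 18 (1.88%) overlapped a control peak, against 552 of 9783 (5.64%) of the others. All 18 overlapped a KO input peak and 7 also a KO ChIP peak.

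The 20 strongest members had mean percentiles of fold between 97.2 and 99.3, and the span of the 4 summits was 2 to 60 bp in each of them. The strongest, chr18:5456736-5459987, was in the gap between Zfp438 and Zeb1, 132.1 kb from Zeb1 and 124.4 kb from Zfp438. Zeb1 encodes a zinc-finger repressor of E-cadherin that acts in the epithelial to mesenchymal transition. In OE libraries 1 to 4 the region had folds of 168, 540, 521 and 108. The second strongest, chr11:12756046-12757775, lay 291.6 kb from Cobl, an actin nucleator, with folds of 476, 278, 301 and 273.

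Several of the others bordered developmental regulators. The region chr5:28796469-28798043 lay 330.2 kb from Shh, the hedgehog ligand that patterns the neural tube and limb, with folds of 389, 204, 204 and 250. It was the only member in the gap between Shh and Rnf32. The region chr13:47820465-47822081, 439.6 kb from Id4, which encodes an inhibitor of helix-loop-helix factors, had 95.3, 454, 343 and 60.5. Their mean percentiles of fold among all reproducible regions were 98.7 and 98.3.

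Among the 20 were also regions beside Foxp2, a forkhead factor of the developing brain (165.4 kb, and 113.2 kb from Mdfic; 267, 181, 168 and 155), Sall3, a zinc-finger factor (682.3 kb; 149, 196, 164 and 113), and Prox1, a homeobox factor (277.6 kb; 98.3, 227, 266 and 66.3). The region between Cetn3 and Mef2c, a MADS-box factor of muscle and neurons, lay 1168.2 kb from Mef2c and 538.7 kb from Cetn3 and had 277, 134, 137 and 136. That between 1600014C23Rik and Vegfa, the angiogenic growth factor, was 130.2 kb from Vegfa and had 95.8, 341, 298 and 68.6. The rest bordered genes of many kinds, such as Grin2a, an NMDA receptor subunit, Runx1t1, a transcriptional corepressor, and Gypc, a red-cell membrane protein. In 7 of the 20, the position was inside an annotated non-coding gene.

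**Figure D4:**
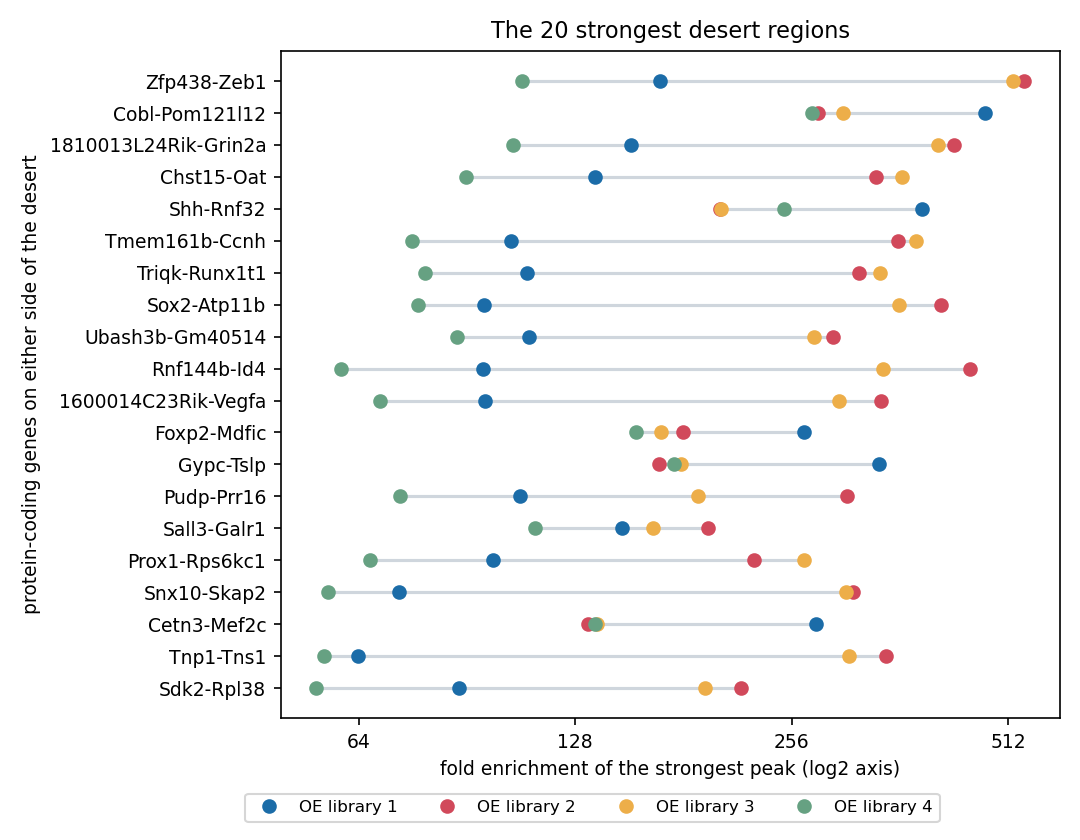
Fold enrichment (x axis, log2) of the 20 strongest desert regions in the 4 OE libraries (coloured points, joined by a line), each named by the protein-coding genes on either side. The region beside Zeb1 has 540 and 521 in libraries 2 and 3, and that beside Shh has 389 in library 1.

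The members farthest from genes ranged from weak to moderate, around the median member's mean percentile of 51.1. The farthest lay 1906.0 kb from Celf4 and 2605.1 kb from Pik3c3, with folds of 11.98, 52.3, 28.4 and 6.81 in OE libraries 1 to 4. The next, between Olfm4 and Pcdh17, had 7.49, 5.33, 3.34 and 4.99, a mean percentile of 7.72. The other 3, in the gaps Slc39a10-Tmeff2, Dsel-Cntnap5a and Pcdh7-G6pd2, had mean percentiles of 65.7, 39.8 and 51.1.

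Some gaps between genes held several members. Chromosomes 1 to 19 had 1376 gaps over 200 kb between protein-coding genes, of which 495 (36.0%) held a member. There was 1 member in 269 gaps, 2 in 123 and 3 or more in 103, and 24 gaps held 5 or more. Gaps with at least 2 members held 665 of the members, or 71.0%. Another member lay within 20 kb of 124 members (13.2%). The shares that evenly spread members would give were not computed, so these counts do not show whether members cluster.

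Wide gaps held members more often but not more densely. A member was present in 20.2% of gaps of 0.2 to 0.5 Mb, 49.9% of those of 0.5 to 1 Mb, 58.6% of those of 1 to 2 Mb and 88.9% of those above 2 Mb. Per Mb more than 100 kb from a gene, the same classes had 2.52, 1.66, 1.19 and 0.993 members. Gap width therefore moves with every count of genes below.

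The gap with the most members was Celf4-Pik3c3 on chromosome 18, with 10 over 4.51 Mb. Akr1e1-Klf6 on chromosome 13 had 9 in 1.25 Mb, and 4 of these were in the lncRNA gene Gm35330. There were 8 each in Sox2-Atp11b, Stim2-Pcdh7 and Cobl-Pom121l12, 7 each in Cdh2-Dsc3, Cdh26-4930591A17Rik and Slc39a10-Tmeff2, and 6 in Dok5-Cbln4. Among these gaps, Cdh26-4930591A17Rik (9.62 members per Mb more than 100 kb from a gene), Sox2-Atp11b (8.87) and Akr1e1-Klf6 (8.55) were the densest. Over all gaps the value was 1.43, but these gaps were picked for their many members. Some narrower gaps were denser, such as Ermard-Dll1 (4 members, 51.7 per Mb) and Opa1-Hes1 (4 members, 19.8 per Mb).

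The desert beside Sox2, which encodes a factor of pluripotent and neural progenitor cells, held a near and a far group of members. The near 4 lay 108.3, 135.0, 143.2 and 167.2 kb from Sox2. The second of them had folds of 17.97, 80.9, 91.5 and 17.3 in OE libraries 1 to 4. The far 4 lay 596.9, 631.0, 668.7 and 822.1 kb away, and the farthest, chr3:35472915-35475783, was the strongest, with 95.5, 414, 361 and 77.3. The one at 668.7 kb, inside the lncRNA gene Gm35425, had 36.7, 108, 101 and 22.98. No member lay between the groups.

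**Figure D5:**
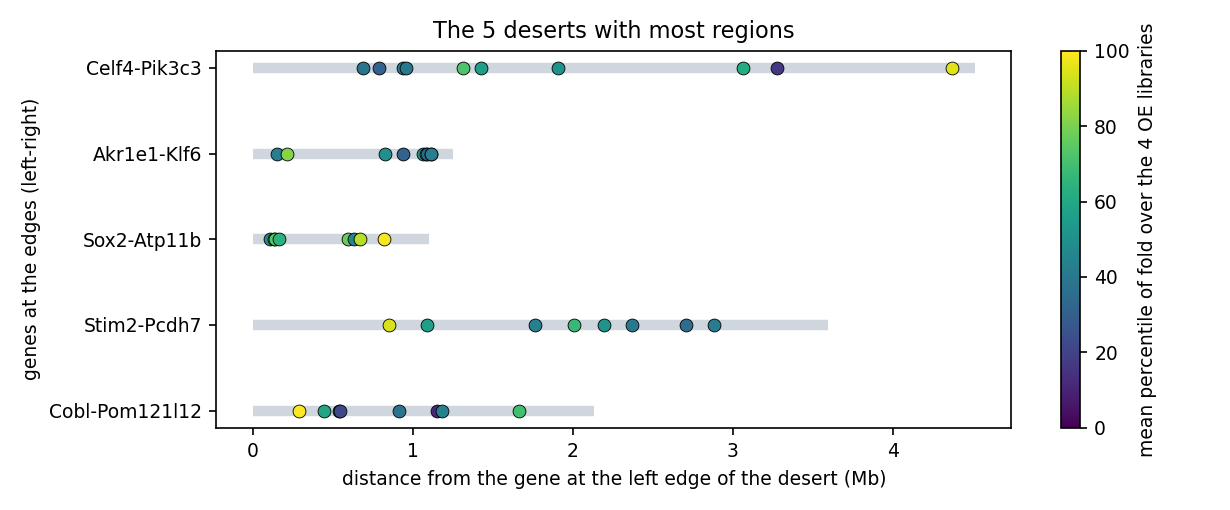
The 5 gaps with most members, drawn as grey bars to scale from the gene at the left edge (x axis, Mb), with each member as a circle coloured by its percentile of fold, averaged over the libraries. The members beside Sox2 form a near and a far group, and the strongest member of the Cobl-Pom121l12 gap stands 291.6 kb from Cobl.

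Genes of 6 lists relevant to TWIST1 and to these cells were looked up at the edges of the gaps. Among neural crest and craniofacial transcription factors that border a gap over 200 kb, 9 of 25 (36.0%) had a member in it, which is near the background of 931 of all 2344 bordering protein-coding genes (39.7%). Their gaps had a median width of 0.495 Mb, against 0.421 Mb over all gaps, and held 0.982 members per Mb, against 1.43. The strongest member was that of Zeb1, described above, and the other genes with a member included Meis1, Msx2, Sox5, Sox6, Tbx15 and Zeb2. Zeb2, a relative of Zeb1, had 3 members 687.0, 1389.8 and 2487.9 kb away, all weak, the first with folds of 8.81, 16.8, 14.1 and 6.19. The 16 without a member included Sox9, Alx1, Hand2, Msx1, Pax3, Runx2, Tfap2a and Twist2.

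Sox9, a regulator of neural crest and cartilage known for its long-range enhancers, borders a gap of 1.06 Mb before it and a gap of 0.457 Mb after it, and neither held a member. Peaks were not absent there. In the first gap, more than 100 kb from either gene, OE libraries 1 to 4 listed 3, 18, 13 and 0 peaks and the KO libraries 0 and 0, and 2 regions had support from 3 or more OE libraries. In the second gap they listed 0, 6, 7 and 1. A member needs a peak of each OE library. Library 4 had 0 in the first gap, and library 1 had 0 in the second, where library 4 had 1.

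Neural progenitor and neuronal transcription factors had a member in 24 of 37 cases (64.9%), with 48 members in their gaps. Their gaps were also wider, with a median of 0.797 Mb against 0.421 Mb over all gaps, and their density of 1.46 per Mb was close to the 1.43 of all gaps. Sox11, a neuronal SOX factor, had 3 members, the strongest at 382.1 kb with folds of 70.4, 249, 209 and 54.0, and Sall1, a zinc-finger factor, had 2, the strongest at 135.8 kb with 92.8, 196, 164 and 57.7.

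Weaker members also bordered genes of this list. Pou3f1, a POU factor of neural commitment, had 4 members, the strongest with 15.0, 23.5, 26.9 and 9.99, and Otx2, a forebrain homeobox factor, had 2, the strongest at 211.9 kb with 8.48, 58.5, 58.0 and 6.81. Pou3f2, of the same family as Pou3f1, had 1 at 1602.1 kb, with 7.49, 5.64, 5.24 and 5.90. Without a member were 13 genes, among them Pax6, Zic1, Irx3 and Nr2f2.

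The basic helix-loop-helix and Id list was short, with 3 of 9 genes (33.3%) but 11 members, or 3.09 per Mb against 1.43 over all gaps. Their gaps had a median width of 0.402 Mb. The members beside Hes1 were in a gap of 0.402 Mb, and gaps of 0.2 to 0.5 Mb had 2.52 members per Mb in general. Those beside Id2 and Id4 were in gaps of 1.21 and 1.01 Mb, and gaps of 1 to 2 Mb had 1.19 in general. Id2, which like Id4 encodes an inhibitor that binds E proteins, had 5 members between 122.0 and 972.2 kb away. The farthest of these was the strongest by mean percentile, with folds of 49.9, 85.1, 108 and 42.2, and the member at 345.0 kb had 25.1, 96.1, 90.7 and 18.3. Hes1, a Notch-responsive repressor, had 4 within 114.3 to 265.0 kb. The one at 204.7 kb had 27.4, 92.8, 108 and 23.6, and that at 251.5 kb had 155, 41.7, 31.9 and 82.6, so libraries 1 and 4 ranked the second higher and libraries 2 and 3 the first. Id4 had 2 members, and Tcf4, which encodes an E protein, had none.

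Pluripotency and early lineage genes had a member in 6 of 9 cases (66.7%), beside the background of 39.7%. Their gaps had a median of 0.555 Mb, against 0.421 Mb over all gaps, and held 1.86 members per Mb, against 1.43. Myc, the growth regulator, had 6 members between 102.7 and 1344.5 kb, 3 of them inside the lncRNA gene Pvt1, and the nearest of those had 18.5, 62.4, 77.6 and 12.3. Mycn had 3, Gata3 had 4, and Klf4, Nr5a2 and Tbx3 had 1 each. The member beside Tbx3, a T-box factor, lay at 123.2 kb and had 22.5, 89.6, 59.9 and 22.7.

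Signalling genes had a member in 15 of 35 cases (42.9%), near the background. Their gaps had a median of 0.403 Mb and held 1.86 members per Mb, against 1.43 over all gaps. In addition to Shh, Dll1, a Notch ligand, had 4 members within 119.2 to 172.2 kb, of which the one at 159.2 kb had 25.5, 80.9, 96.6 and 17.3. Bmp4, a bone morphogenetic protein, and Gli3, a transcription factor of the hedgehog pathway, had 3 each, and Bmp7, Fzd8 and the growth factor Igf1 had 2 each. The 20 without a member included Jag1, Nog, Ptch1 and Wnt5a.

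Adhesion and guidance genes had a member in 34 of 55 cases (61.8%), with 120 members. Their gaps were the widest of the 6 lists, with a median of 1.43 Mb, and the density of 0.992 per Mb was below the 1.43 of all gaps. Pcdh7, a protocadherin, had 13 members over its 2 gaps, the most of any listed gene, and the strongest lay 2741.5 kb away (853.6 kb from Stim2) with folds of 177, 82.4, 69.1 and 85.8. Cdh2, which encodes N-cadherin, had 8, the strongest 2451.7 kb away (699.9 kb from Dsc3) with 103, 53.4, 43.5 and 48.6. Cntn5, a contactin, had 5, the strongest at 993.7 kb with 51.4, 263, 164 and 40.9. For distances of this size the gene at the edge is a landmark.

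The deserts were free of protein-coding genes but not of annotation. The position of 154 members (16.4%, Wilson 95% interval 14.2% to 18.9%) lay inside an lncRNA gene, while lncRNA genes took up 10.8% of the desert length. With every non-coding gene counted it was 172 members (18.4%) against 12.8% of the length. Among lncRNA genes, Gm35330 held 4 members and Pvt1 held 3. The lncRNA 6030407O03Rik, between Tnp1 and Tns1, held 2, the stronger of which was among the 20 strongest, with 63.9, 347, 308 and 57.2.

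The widest gaps without a member also held OE peaks. The gap Tenm3-Aga, of 3.99 Mb, had 5, 20, 11 and 0 peaks of OE libraries 1 to 4 more than 100 kb from its edges and 0 in both KO libraries, and 3 regions there had support from 3 or more OE libraries. The gap Gm15501-Tenm4, of 2.99 Mb, had 2, 23, 17 and 0. In the 5 widest such gaps library 4 had at most 1 peak each, and a member needs a peak of that library. The fifth, Adam6a-Zfp386, holds Igh and was the only gap of the 5 with KO peaks, 3 and 4.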

How the data were processed

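The samples were 4 Twist1-OE ChIP, 2 Twist1-KO ChIP and 1 Twist1-KO input library from embryoid bodies; 2 OE inputs were not analysed here. Replicates are separate experiments per the series' design text, so libraries, and not regions or peaks, are the units of the tests. The OE libraries formed pairs of low and high background, while the sign-flip tests treat each library as a separate unit. The deposited files are peak lists, 1 per library and not pooled. Trimmomatic, BWA, Picard and MACS2 and the builds mm10 and GRCm38.p5 are named per the submitters' processing notes; their versions and settings and the caller's control were not given in the sources used here, and another control could change folds and calls. Each peak has the authors' fold enrichment (a linear ratio to local background), the authors' −log10 p-value and −log10 q-value (q at most 0.01 in all deposited lists), and a deposited score, about 10 times the −log10 q-value, used only to check the layout.

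Regions, positions and deserts were computed as described in the report in Python 3.11.15 (scipy 1.17.1, numpy 2.4.6). Gene bodies are those of RefSeq on GRCm38.p6, which shares main-chromosome coordinates with mm10; 20560 protein-coding genes on chromosomes 1 to 19 were used, and 105 protein-coding entries placed in the unsequenced first 3 Mb were left out. Genome lengths were measured on a grid of 500 bp between the first and last gene or peak of a chromosome. Read pileups were solved from fold and p-value under the caller's Poisson model, and were whole numbers for 100% of peaks within 0.2% of the −log10 p. Tests were exact: permutation of the genotype over the 6 ChIP libraries, and sign flips over the 4 OE libraries. The code was tested on simulated data.

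The members and the 6 gene lists (266 genes, all found in the table) were chosen with earlier results of these data known. Named regions are the 20 members with the highest mean within-library percentile of fold, the 5 farthest from a gene and the 5 on each side of the 100 kb limit; named gaps are the 10 with the most members, with ties broken by mean percentile; named genes border these or belong to a list, and a few of them are not reported here. The widest gaps without a member, the gaps beside Sox9, the lncRNA genes and the promoter windows were chosen after their values were seen. Alternatives changed the distance, the gene table, the peak threshold, the libraries required, the summit agreement and the list length, and left out each library. Sequences are RefSeq promoter windows; no genome was used here, so E-boxes under the other members were not analysed.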

Additional observations from a re-analysis of the deposited data

Results flagged for a closer look

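Values of 4 OE libraries were checked for a library standing apart from the other 3, by the gap to its neighbour as a share of the whole range. Of 24 such groups 4 passed the limit, where chance gives about 1 in 20. The share of desert regions found again in a left-out library was 54.1% for library 4, against 93.6% to 99.7% for the others (gap 0.866 of the range). For 3 of the 20 strongest members the fold of library 1 was the one apart, where folds of libraries with different backgrounds are not levels on 1 scale: the region beside Cobl, at 476 against 273 to 301 (0.861 of the range), the region between Gypc and Tslp, at 339 against 168 to 180 (0.929), and the region between Cetn3 and Mef2c, at 277 against 134 to 137 (0.973). Library 4 had the fewest peaks, and libraries 1 and 4 had the low background pileup; their part in these values was not tested.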

How the results depend on the processing

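The count of 937 desert regions was 1408 at 50 kb from a gene, 511 at 200 kb and 162 with non-coding genes included. With a −log10 q of at least 10 it was 628, and with summits within 100 bp 708. It was 1809 with 3 of 4 libraries and 611 with equal list lengths. Leaving out 1 OE library gave 940 to 1727, the highest without library 4. The members' share of 9.22% was 13.8% at 50 kb, 5.03% at 200 kb, 1.59% with non-coding genes, 9.899% with a −log10 q of at least 10, 9.900% with 3 of 4 libraries, 13.2% with summits within 100 bp and 11.98% with equal lists; leaving out a library gave 9.03% to 10.2%. The share of bordering genes, 39.7%, was 35.0% at 50 kb, 13.1% with non-coding genes, 31.1% with the stricter q, 54.1% with 3 of 4 libraries, 34.0% with summits within 100 bp and 30.2% with equal lists; leaving out a library gave 39.8% to 52.8%. The cause of these shifts was not tested beyond what each setting changes by construction.

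The log2 fold difference of 0.27 turned to -0.092 with summits within 100 bp and to -0.067 against intergenic regions only (added after the data were seen), and it was 0.0068 with equal list lengths (exact p = 0.875) and 0.11 with non-coding genes included; leaving out a library gave 0.11 to 0.38. The recovery difference of -0.53 points turned to 1.06 with the stricter q, to 19.3 for summits within 100 bp (22.6 among regions found again, added after the data were seen) and to 1.36 without OE replicate 4; leaving out a library gave -1.50 to 1.36. The OE minus KO difference of -25.8 points turned to 0.13 with non-coding genes included and was -13.5 with equal list lengths (exact p = 0.6); leaving out a library gave -32.8 to -18.9. With the replicate block, which pairs numbers 2 and 3, it was -25.8 with an exact p of 0.5, the smallest 2 pairs allow; nothing in the labels pairs the samples beyond the shared number. E-box shares under the summits were not run, since no genome was used. The count of members is limited by library 4, whose list has 13784 peaks.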
